A study of Mus musculus with 2 samples.

Results

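The IGHV5 family is a group of mouse antibody heavy-chain variable (V) genes that lie at the end of the heavy-chain locus nearest to the diversity (D) segments. Its members were taken as all heavy chains whose assigned V gene starts with IGHV5-, in cells with exactly 1 productive heavy chain. By this rule 485 of 6241 cells carried an IGHV5 heavy chain, through 9 of the 95 IGHV genes in use. Cells joining IGHV5-17 to the joining (J) segment IGHJ4 were kept apart: there were 94 of them, which left 391 cells.

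The cells came from Peyer's patches, lymphoid follicles of the small intestine, and antigen receptor transcripts were sequenced with droplet barcodes after magnetic enrichment for the white blood cell protein CD45. Both groups were adult female mice homozygous for a floxed H2-Ab1, the gene for an MHC class II beta chain. The Cre+ group also carried Villin:Cre, whose promoter drives the recombinase in intestinal epithelial cells, and the Cre- group did not. Each library pooled 4 mice of its genotype, and the 2 libraries are the only samples, so no difference between genotypes has a replicate check and no test was made. The series' design text gives both groups the Cre-negative genotype, against the sample labels, and H2-Ab1 was not measured, so the genotype has no check in these data. There were 3748 barcodes in the Cre+ library and 3245 in the Cre- library, and the median cell had 8 and 10 heavy-chain unique molecular identifiers (UMIs, counts of distinct RNA molecules). Intervals throughout are exact 95% binomial limits for counting error alone, and they treat cells of 1 lineage as if they were independent. Without gene expression, cell types were not assigned. A total of 8 barcodes were found among the cells of both libraries, and 1 of these barcodes marked an IGHV5 cell in at least 1 library.

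A heavy chain is made by joining a D to a J segment and then a V segment to both, and the third complementarity-determining region (CDR3) spans that joint. IGHV5-2, known as VH81X, is the functional V gene nearest to the D segments. It is rearranged often in early B cell precursors, yet many of its heavy chains pair poorly with the surrogate light chain and are lost before the mature stage. Class switching then replaces IgM and IgD by IgG or by IgA, the class secreted into the gut.

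RefSeq's GRCm38.p6 annotation placed the members on chromosome 12, with positions that rise with distance from the D segments, over 281 kb. IGHV5-2 lay nearest, at positions 113578504 to 113578990, 51.7 kb from the last D segment. It was followed by IGHV5-4 at 113597448 to 113597741, IGHV5-6 at 113625508 to 113625801 and IGHV5-9 at 113661771 to 113662228. IGHV5-12 at 113702126 to 113702419 and IGHV5-9-1 at 113736113 to 113736406 came next. IGHV5-15 at 113826648 to 113826941, IGHV5-16 at 113838528 to 113838821 and IGHV5-17 at 113859149 to 113859442 were the farthest, the last at 332 kb. Of the 21 IGHV5 segments in that annotation, 11 were pseudogenes and 0 of these had a cell. Among the 10 others IGHV5-12-4 was the one without a cell.

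The members differed in the most common bases at the start of the CDR3, which the sequences below show because they divide the family into groups. Each is the most common first 11 nucleotides of the CDR3 in unswitched (IgM or IgD) cells of that gene, from the cysteine codon on, and the capitals mark the last 2 bases, which follow the third codon:
IGHV5-2: tgtgcaagaCA
IGHV5-4: tgtgcaagaGA
IGHV5-6: tgtgcaagaCA
IGHV5-9: tgtgcaagaCA
IGHV5-12: tgtgcaagaCA
IGHV5-9-1: tgtacaagaGA
IGHV5-15: tgtgcaagaCA
IGHV5-16: tgtgcaagaGA
IGHV5-17: tgtgcaaggCC
The first 9 bases read Cys-Ala-Arg in every member but IGHV5-9-1, whose form reads Cys-Thr-Arg and was present in 53 of its 60 cells. IGHV5-17 spelled the arginine with a different last base, found in 164 of its 200 cells, of which 62 carried 1 identical CDR3, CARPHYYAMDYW. The next pair of bases was CA in 18 of 44 unswitched cells of IGHV5-6, in 7 of 19 of IGHV5-12, in 3 of 6 of IGHV5-2 and in 2 of 4 of IGHV5-15. In IGHV5-9 it was CA in 4 of 16 cells and GG in 3, so its form rests on a difference of 1 cell. It was GA in 28 of 50 cells of IGHV5-4, in 27 of 55 of IGHV5-9-1 and in 20 of 53 of IGHV5-16. In IGHV5-17 it was CC in 27 of 130 cells, with GA second in 18. Those 27 include 5 IgM cells and 1 IgD cell with that identical CDR3, so the lead of CC rests partly on copies of 1 sequence.

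No germline V sequence was compared, so whether the V genes encode these last 2 bases was not tested. The 2 bases open the codon of the fourth CDR3 residue, and the groups below were formed by them in the same cells. Differences in the fourth residue, a comparison chosen after the values were seen, therefore restate that grouping and are not separate support for it. Histidine stood there in 17 of 85 unswitched cells of IGHV5-2, IGHV5-6, IGHV5-9 and IGHV5-12 together (20%, interval 12.1 to 30.1%). It stood there in 0 of 158 cells of IGHV5-4, IGHV5-16 and IGHV5-9-1 (exact upper bound 2.31%) and in 3.08% of unswitched cells that use other families. Aspartate ran the other way, with 57 of 158 cells in the second trio (36.1%, 28.6 to 44.1%) against 7 of 85 (8.24%) in the first group. Within the first group IGHV5-9 had each residue in 2 of 16 cells, and the 4 cells of IGHV5-15, with histidine in 1 and aspartate in 0, were not counted in it. IGHV5-4 had the most, 24 of 50 cells (48.0%). IGHV5-17 instead had proline in 33 of 130 cells (25.4%, 18.2 to 33.8%), against 3.58% outside the family. The 33 include the 5 IgM cells and 1 IgD cell that carry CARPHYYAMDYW, and the interval counts them as independent.

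The family was used by 297 of 3294 cells of the Cre+ library (9.02%, interval 8.06 to 10.0%) and by 188 of 2947 of the Cre- library (6.38%, 5.52 to 7.32%), a difference of 2.64 percentage points (1.29 to 3.98). Most of that difference lay in IGHV5-17 with IGHJ4, which held 77 Cre+ cells (2.34%) and 17 Cre- cells (0.577%). With those cells taken out of both the count and the total, the shares were 6.84% (5.99 to 7.77%) and 5.84% (5.01 to 6.75%), and the interval of their difference, 1.0 points (-0.242 to 2.24), spanned 0. The largest lineage of the Cre- library, 417 cells of another family, also lowers the Cre- share. Without the largest lineage of each library, IGHV5 made up 7.21% of Cre+ and 7.43% of Cre- cells, a difference of -0.217 points (-1.61 to 1.15). Among unswitched cells the shares were 7.42% and 7.11%.

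Of single members, IGHV5-17 was the most used and IGHV5-16 the next. IGHV5-17 with a J segment other than IGHJ4 accounted for 59 cells in the Cre+ library (1.79%), against 47 in the Cre- library (1.59%). IGHV5-16 had 33 and 29 cells (1.0% and 0.984%), IGHV5-4 had 32 and 22 (0.971% and 0.747%), and IGHV5-6 had 28 and 22 (0.85% and 0.747%). By share of all cells, IGHV5-9-1 was the only member with 20 or more cells that was higher in the Cre- library, 28 cells (0.85%) against 32 (1.09%), with overlapping intervals. That depends on the total. Without the largest lineage of each library, IGHV5-16 (1.02% and 1.15%), IGHV5-6 (0.867% and 0.870%) and IGHV5-17 (2.23% and 2.53%) were also higher in Cre-. The interval of each of these differences spanned 0. The least used were IGHV5-9 with 18 and 7 cells, IGHV5-12 with 17 and 6, IGHV5-2 with 1 and 5, and IGHV5-15 with 4 and 1. In the order of total cells, the neighbours IGHV5-16, IGHV5-9-1, IGHV5-4 and IGHV5-6 had overlapping intervals in each library.

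**Figure D1:**
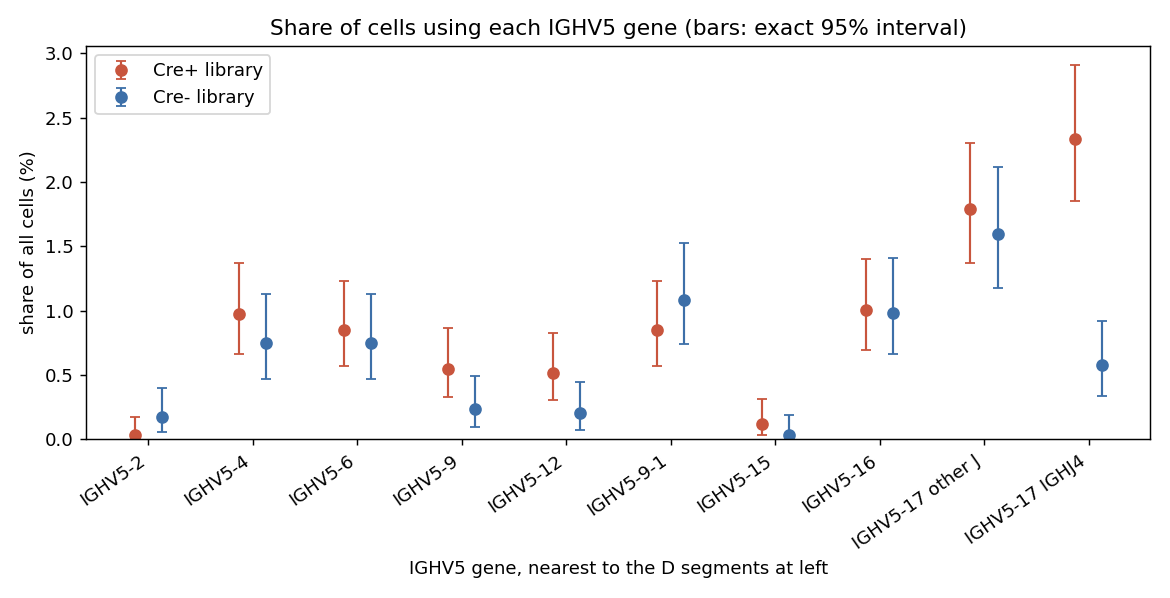
Share of all cells of each library (percent, vertical axis) that used each IGHV5 gene, ordered from the D segments outward, with IGHV5-17 divided by J segment; points are libraries and bars exact 95% intervals. The intervals of the libraries overlap for every gene but IGHV5-17 with IGHJ4, at 2.34% in Cre+ and 0.577% in Cre-.

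By a rule of size, a ratio of shares of 1.5 or more in either direction, 3 of the 7 members with 20 or more cells stood out, against 15 of 64 IGHV genes of that size (23.4%). They were IGHV5-9 (2.30-fold), IGHV5-12 (2.53-fold) and IGHV5-17 (1.90-fold), all with the higher share in Cre+, a direction that 11 of the 64 genes took (17.2%). The intervals of IGHV5-9 and IGHV5-12 overlapped between libraries. IGHV5-17 was the 1 member whose intervals did not, beside 6.25% of the 64 genes. No member, 0 of 7, passed it with the lower share in Cre+, against 6.25%. With the largest lineages and IGHV5-17 with IGHJ4 left out, IGHV5-9 and IGHV5-12 still passed, 2 of 7 against 18.8% of 64 genes. Both were higher in Cre+, against 10.9%, and 0 of 7 were lower, against 7.81%. The intervals were apart for 0 of 7 members there, against 1.56%. Among the 5 members with 20 or more unswitched cells 0 passed the rule on those cells, against 14.8% of 61 genes, 6.56% with the higher and 8.2% with the lower share in Cre+. IGHV5-17 stood at 2.61% and 2.38% of them.

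The 77 Cre+ cells of IGHV5-17 with IGHJ4 held 64 cells of 1 lineage, here a set of cells of 1 library with the same V and J genes and the same CDR3 length, in which each cell shares at least 85% of its CDR3 bases with some other cell of the set, though not with all of them. The 3 CDR3s of that lineage are shown because the last 2 were joined to it by similarity alone, with capitals at the bases that differ from the first:
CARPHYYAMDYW: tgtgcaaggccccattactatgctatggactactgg
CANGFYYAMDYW: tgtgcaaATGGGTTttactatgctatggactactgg
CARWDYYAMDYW: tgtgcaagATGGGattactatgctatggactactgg
The first was carried, with the same 36 bases, by 62 cells. The other two were each carried by 1 IgM cell with its own light chain, and they differ from it by 7 and 5 bases, all at or next to the V end. The second, with its 7 differences, is below that identity to the first and entered the set through the third alone. Of the lineage's 62 cells with a constant gene called, 53 were IgA, 1 was IgG1 and 8 were IgM or IgD. The light chain IGKV4-72 with the CDR3 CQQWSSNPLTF was found in 48 cells, of which 47 were IgA and 0 were IgM or IgD, so the IgM and IgD cells of the lineage had another light chain or none listed. A mismatch to the J sequence was present in 0 of 54 switched cells. All 54 carried the first CDR3, so this is 1 observation of 1 sequence, and no interval is given.

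Outside that lineage IGHV5-17 with IGHJ4 had 13 Cre+ cells (0.395% of all) and 17 Cre- cells (0.577%), each with its own CDR3. They were mostly unswitched, 11 of 13 and 16 of 17. Their most common D segment was IGHD1-1, in 12 of the 27 cells with a D called, followed by IGHD2-3 and IGHD2-8 with 4 each. Proline was again the most frequent of the fourth residues counted, in 7 of 27 unswitched cells.

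IGHV5-2 was rare among productive chains and common among nonproductive ones, which the contig tables also list. It was singled out after its values were seen. Over all heavy-chain contigs, 14 of 16 of IGHV5-2 were nonproductive in the Cre+ library (87.5%, interval 61.7 to 98.4%), as were 9 of 14 in the Cre- library (64.3%, interval 35.1 to 87.2%). Together these were 23 of 30 (76.7%, 57.7 to 90.1%), against 20 of 555 for all other IGHV5 genes (3.60%) and 5.33% outside the family. Among 72 IGHV genes with 20 or more contigs IGHV5-2 ranked second from the highest, behind IGHV12-3 at 91.3%. It supplied 23 of the 390 nonproductive contigs of both libraries (5.90%) but 7 of the 6708 productive ones (0.104%).

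The nonproductive IGHV5-2 transcripts were few per cell, with a median of 2 UMIs (1 to 6), and 7 of the 23 had a stop in the listed CDR3. In 19 of their 23 barcodes a productive heavy chain was present, with a median of 7 UMIs. Exactly 1 such chain was present in 18 of the 19. Productive partners used IGHV1, the large distal family, in 15 barcodes and IGHV5 in 0. Of all productive heavy-chain contigs, 57.8% used IGHV1 and 8.08% used IGHV5. The partners were IgM or IgD in 17 barcodes, as were 2911 of 3294 Cre+ and 2265 of 2947 Cre- cells, and came from 17 different V genes. Whether they differ from those shares was not tested. A D segment of the IGHD2 family was called in 15 of the 23 nonproductive contigs (65.2%, 42.7 to 83.6%) and in 154 of 347 nonproductive contigs outside IGHV5 (44.4%, 39.1 to 49.8%), with overlapping intervals. With contigs of at least 3 UMIs alone, 5 of 7 Cre+ and 4 of 9 Cre- contigs of IGHV5-2 were nonproductive.

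The 6 cells with a productive IGHV5-2 chain as their single heavy chain are shown by their CDR3, since the member rests on so few:
IGHV5-2 cell 1: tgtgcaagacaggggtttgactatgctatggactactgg
IGHV5-2 cell 2: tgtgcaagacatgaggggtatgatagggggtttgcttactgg
IGHV5-2 cell 3: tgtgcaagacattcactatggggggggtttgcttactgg
IGHV5-2 cell 4: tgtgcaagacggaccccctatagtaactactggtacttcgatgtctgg
IGHV5-2 cell 5: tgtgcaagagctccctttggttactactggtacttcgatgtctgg
IGHV5-2 cell 6: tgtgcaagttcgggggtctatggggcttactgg
The first came from the Cre+ library and the other 5 from the Cre- library. They were 4 IgM and 2 IgD cells, each with a different kappa V gene. All 6 are distinct rearrangements, with 0 in a lineage of 2 or more. A seventh productive chain, IgG2b with 7 UMIs, lay in a Cre+ barcode beside an IGHV8-13 chain of 2 UMIs, and the rule of 1 heavy chain per cell left it out.

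**Figure D2:**
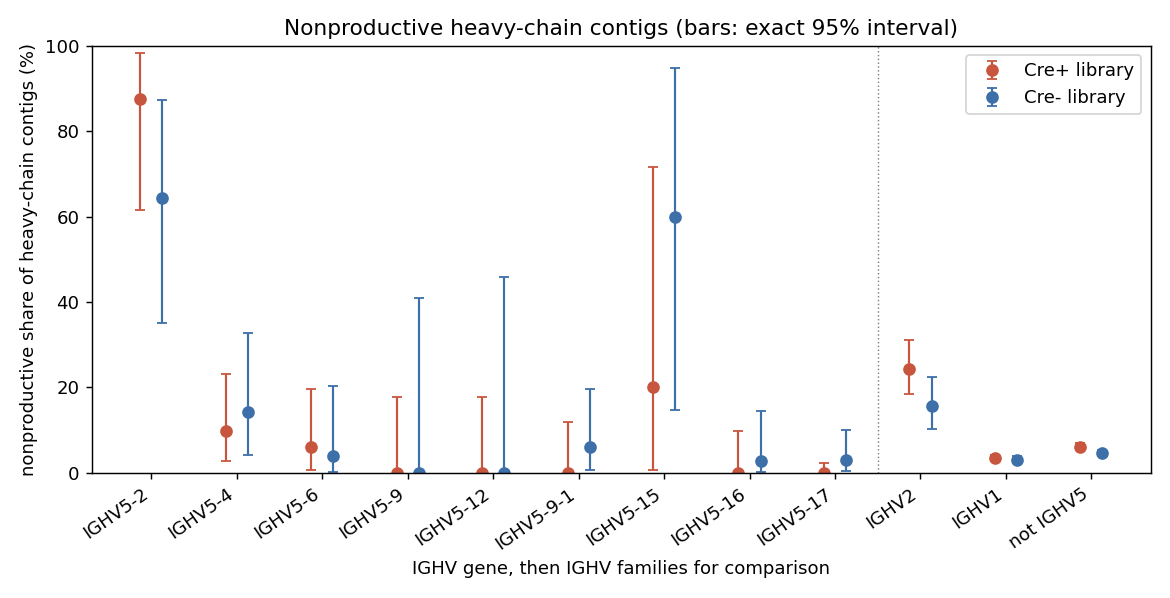
Share of heavy-chain contigs that were nonproductive (percent, vertical axis) for each IGHV5 gene and, right of the dotted line, for IGHV2, IGHV1 and all contigs outside IGHV5; points are libraries and bars exact 95% intervals. IGHV5-2 lies at 87.5% and 64.3%, above every other member in each library, with IGHV5-15 resting on 10 contigs.

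The other members had few nonproductive contigs. IGHV5-15 had 4 of 10 and IGHV5-4 had 8 of 69 (11.6%). IGHV5-17 had 2 of 231 (0.866%), while IGHV5-9 had 0 of 26 and IGHV5-12 had 0 of 25. IGHV2, the family interspersed with IGHV5 in the proximal part of the locus, had 20.5%, and the distal IGHV1 had 3.15%.

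Class switching outside IGHV5-17 with IGHJ4 had reached 23 of 220 Cre+ cells (10.5%, interval 6.74 to 15.3%). In the Cre- library it had reached 26 of 171 (15.2%, interval 10.2 to 21.5%). The difference of -4.75 points had an interval of -12 to 2.21. Cells outside the family, without the largest lineages, were switched in 9.59% and 9.82%. The 49 switched IGHV5 cells were 25 IgA, 17 IgG2b and 7 IgG1, and IgG3 was found in 0 of 483 IGHV5 cells with a constant gene called. They carried 45 distinct CDR3s, and 38 of the 49 were alone in their lineage.

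Genes were ranked without the largest lineage of each library and without IGHV5-17 with IGHJ4. IGHV5-9 then stood highest, with 9 of 25 cells switched (36%, 18.0 to 57.5%), the highest share among 64 IGHV genes with 20 or more cells. These were 6 of 18 Cre+ and 3 of 7 Cre- cells, with 3 each of IgA, IgG1 and IgG2b, and no pair of them shared a lineage. IGHV5-12 had 4 of 23 (17.4%) and IGHV5-16 had 9 of 62 (14.5%). IGHV5-9-1 had 5 of 60 (8.33%) and IGHV5-4 had 4 of 54 (7.41%), which placed them 37th and 42nd. IGHV5-17 with other J segments had 11 of 106 (10.4%), with 2 of 59 in Cre+ (3.39%, interval 0.413 to 11.7%), against 9 of 47 in Cre- (19.1%, interval 9.15 to 33.3%). The 2 Cre+ cells were 1 lineage, and the 9 Cre- cells included a lineage of 3 and a lineage of 2. These intervals count such copies as independent cells.

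**Figure D3:**
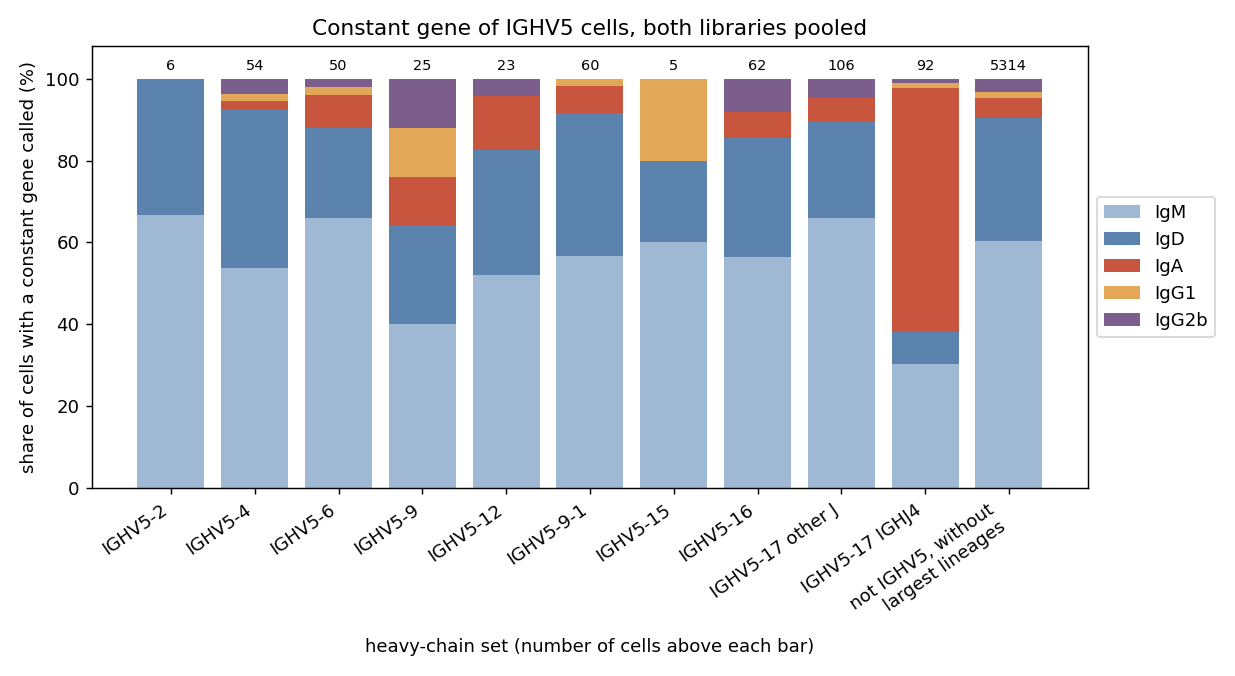
Constant gene of cells with both libraries pooled (percent of cells with a constant gene called, stacked bars), for each IGHV5 gene and for cells outside the family, leaving out each library's largest lineage; the number of cells stands above each bar. IGHV5-9 has 36% switched cells, and IGHV5-17 with IGHJ4 is mostly IgA through its 64-cell lineage.

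Lineages were small outside IGHV5-17 with IGHJ4. There were 7 lineages of 2 or more cells in the Cre+ library, holding 14 of 220 cells (6.36%), and 5 in the Cre- library, holding 11 of 171 (6.43%). All cells used the same light V gene in 2 lineages of each library. Those 4 lineages, all of switched cells, are shown with capitals at the bases that differ between cells, since their cells share the light V gene as well as the heavy chain:
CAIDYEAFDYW, first cell: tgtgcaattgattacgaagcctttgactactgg
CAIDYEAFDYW, second cell: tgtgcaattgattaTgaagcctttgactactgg
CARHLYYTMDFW: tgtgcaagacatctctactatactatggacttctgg
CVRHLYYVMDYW: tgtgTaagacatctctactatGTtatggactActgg
IGHV5-17 with IGHJ1, first cell: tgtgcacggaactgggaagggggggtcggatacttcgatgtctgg
IGHV5-17 with IGHJ1, second cell: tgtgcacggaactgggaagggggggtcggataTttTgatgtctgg
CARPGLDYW: tgtgcaaggccgggacttgactactgg
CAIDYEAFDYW was an IgA pair of IGHV5-17 with IGHJ2 from the Cre+ library, both with IGKV1-135, and its 1 difference keeps the protein sequence. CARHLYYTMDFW and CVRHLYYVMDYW were a Cre+ IgA pair of IGHV5-6 with IGHJ4, both with IGKV4-57-1, and differ by 4 bases. The IGHV5-17 pair with IGHJ1 was 2 Cre- IgA cells with the same kappa V gene, and their CDR3 proteins are the same. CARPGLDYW was found with 1 nucleotide sequence in 3 Cre- IgG2b cells of IGHV5-17 with IGHJ2 and IGKV6-15. Their light-chain CDR3s all differed: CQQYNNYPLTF, CQQYNNHPLTL and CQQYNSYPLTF.

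A further pair fell below the 85% limit and was picked out after its sequences were seen. It was 2 Cre- IgA cells of IGHV5-9-1 with IGHJ4, whose CDR3s differ at 8 of 48 bases:
IGHV5-9-1, first cell: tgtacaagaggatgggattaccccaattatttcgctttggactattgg
IGHV5-9-1, second cell: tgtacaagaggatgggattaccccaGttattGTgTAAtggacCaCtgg
The differences all lie in the later part of the CDR3. Across libraries, 1 CDR3 protein sequence of the family recurred, through different V genes and different bases. The capitals again mark the differences:
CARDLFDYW of IGHV5-4, Cre+: tgtgcaagagatctctttgactactgg
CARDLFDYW of IGHV5-6, Cre-: tgtgcaagGgaCTtAtttgactactgg
Both were IgM cells with IGHJ2, paired with IGKV6-15 in Cre+ and IGLV3 in Cre-.

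Marks of change at the joint were more frequent in switched than in unswitched cells. The most common first 9 bases of each gene were present in 289 of 342 unswitched cells outside IGHV5-17 with IGHJ4 (84.5%, 80.2 to 88.2%) and in 32 of 49 switched cells (65.3%, 50.4 to 78.3%). A mismatch in the 9 bases before the last codon, against the usual sequence of that J segment, was found in 26 of 342 unswitched cells (7.60%, 5.03 to 10.9%) and in 16 of 49 switched cells (32.7%, 19.9 to 47.5%). Both reference sequences were the most common ones in unswitched cells, not germline sequences, which favours a match in those cells. Trimming of the segments and mutation cannot be told apart by these measures.

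Among unswitched cells the J mismatch was rarer in IGHV5 than outside it. The difference, all IGHV5 cells minus the others, was -9.12 points in the Cre+ library (-12.5 to -4.66) and -7.75 points in the Cre- library (-11.8 to -2.20). Unswitched cells outside the family had it in 16.1% and 15.8%. The gap was present within IGHJ2 alone, at 17 of 123 IGHV5 cells (13.8%) against 30.4%. The family ranked eighth from the highest of 10 families with 50 or more unswitched cells, so low values are not particular to it. With 6 bases in place of 9 the gaps were -4.53 and -1.60 points.

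IGHJ1 was taken more often by unswitched IGHV5 cells than by others, 24.5% against 17.2% in the Cre+ library and 23.0% against 18.5% in the Cre- library. The interval of the difference excluded 0 in the first (1.54 to 13.8 points) and spanned it in the second (-2.04 to 11.9). Averaged over the libraries IGHV5 ranked 2nd of 10 families at 23.8%, behind IGHV7 at 37.2%, so high IGHJ1 use is not particular to it. The members varied. IGHV5-16 used IGHJ1 in 11 of 29 Cre+ and 9 of 24 Cre- cells, 37.7% over both, and IGHV5-12 in 8 of 19 (42.1%). IGHV5-9-1 used it in 7 of 55 (12.7%). IGHV5-4 leaned to IGHJ2, with 23 of 50 cells (46.0%), and had IGHJ3 in 6 of 29 Cre+ and 0 of 21 Cre- cells. IGHJ4 was found in 45 of 216 Cre+ (20.8%) and 48 of 161 Cre- unswitched IGHV5 cells (29.8%). The interval of the difference, -8.98 points, was -18.3 to 0.217 and spanned 0. The 45 include 8 cells of the largest IGHV5-17 IGHJ4 lineage, so that interval counts copies of 1 lineage as independent. Outside IGHV5-17 with IGHJ4, the Cre+ share fell to 13.2% (26 of 197, interval 8.81 to 18.7%). The Cre- share fell to 22.1% (32 of 145, interval 15.6 to 29.7%). No interval is given for the difference between these 2 shares.

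The D segments of the family were those common elsewhere. IGHD1-1 was called in 129 of 388 cells with a D (33.2%), IGHD4-1 in 56 (14.4%) and IGHD2-3 in 48 (12.4%). Among unswitched cells IGHV5-16 used the IGHD2 family in 26 of 53 cells (49.1%) and IGHD1 in 11 (20.8%), against 38.0% and 33.6% outside the family. IGHV5-4 and IGHV5-12 used IGHD4 in 11 of 50 and 5 of 19 cells and IGHV5-9 in 4 of 16, against 10.8% outside the family. IGHD1-1 led in IGHV5-9-1 (22 of 54 cells with a D), IGHV5-6 (18 of 46), IGHV5-12 (8 of 21) and IGHV5-9 (7 of 23). In IGHV5-9-1 and IGHV5-6 it was followed by IGHD2-4 (9 and 6 cells) and IGHD2-3 (7 and 5). In IGHV5-9 and IGHV5-12 it was followed by IGHD4-1 (5 each) and IGHD2-3 (3 and 2). IGHV5-17 had IGHD1-1 in 47 of 125, IGHD4-1 in 20 and IGHD2-4 in 13. IGHV5-16 had IGHD1-1 and IGHD2-3 in 14 of 59 each and IGHD4-1 in 7, and IGHV5-4 had IGHD1-1 and IGHD4-1 in 11 of 50 each and IGHD2-4 in 7.

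The kappa light chains of unswitched IGHV5 cells used IGKJ5 often, a comparison made after the values were seen. IGKJ5 is the last of the kappa J segments, the one that remains available after repeated kappa rearrangement. In the Cre+ library 69 of 202 kappa cells had it (34.2%, interval 27.6 to 41.1%). In the Cre- library 47 of 149 did (31.5%, interval 24.2 to 39.7%). Outside the family the shares were 23.9% and 25.1%. The differences were 10.3 points (3.53 to 17.4) in Cre+ and 6.49 points (-1.13 to 14.8) in Cre-, so the interval excluded 0 in 1 of the 2 libraries. Averaged over the libraries IGHV5 had the highest share of 10 families, 32.9%, with IGHV2 close to it at 31.0% over its 197 cells and IGHV14 lowest at 20.7%.

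The IGKJ5 share did not rest on 1 member. It was 42 of 122 in IGHV5-17 (34.4%), 16 of 46 in IGHV5-9-1 (34.8%), 13 of 38 in IGHV5-6 (34.2%) and 16 of 52 in IGHV5-16 (30.8%). IGHV5-12 had 9 of 19 (47.4%), IGHV5-4 had 15 of 48, and IGHV5-9 was the lowest of these with 3 of 16. Outside IGHV5-17 with IGHJ4 the differences from other cells were 9.80 and 5.02 points, the second with an interval of -2.87 to 13.8.

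**Figure D4:**
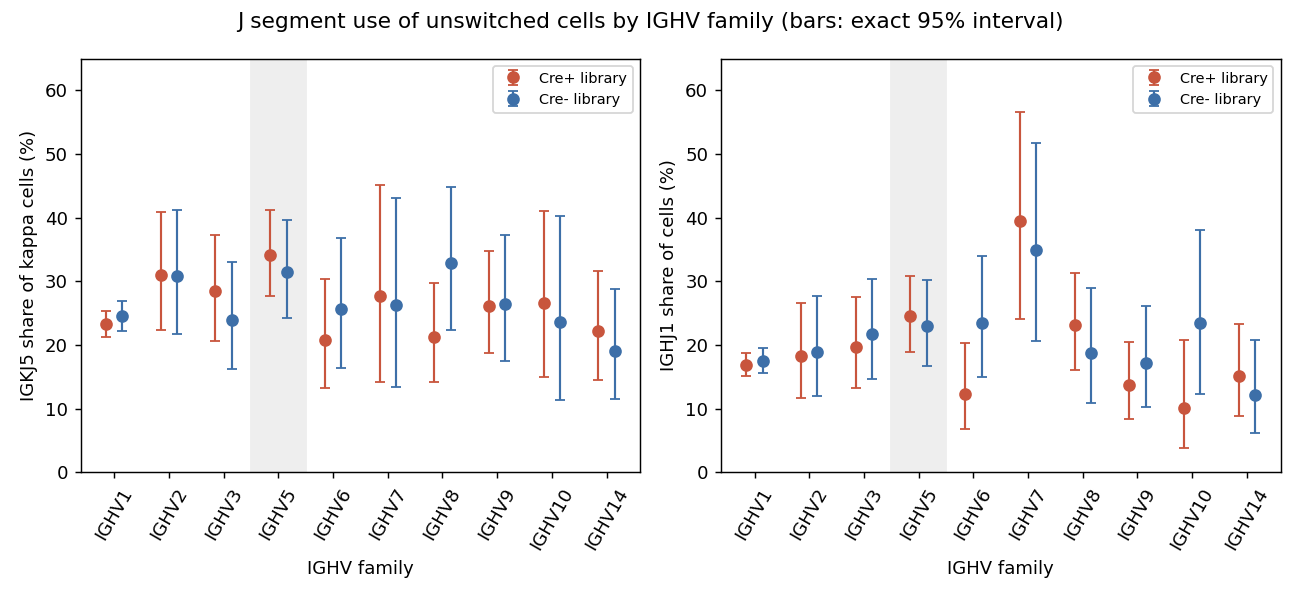
Share of unswitched cells of each IGHV family whose kappa chain used IGKJ5 (left, percent of kappa cells) and whose heavy chain used IGHJ1 (right, percent of cells); points are libraries and bars exact 95% intervals, and IGHV5 is shaded. IGHV5 lies at 34.2% and 31.5% for IGKJ5, and at 24.5% and 23.0% for IGHJ1.

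Lambda light chains differed in share between members. They were found in 25 of 478 IGHV5 cells with a light chain (5.23%) and in 4.35% of other cells. IGHV5-9-1 had them in 9 of 58 cells (15.5%, 7.35 to 27.4%), of which 8 used IGLV1 and 1 used IGLV2, in both libraries. IGHV5-6 had them in 6 of 50 (12%, 4.53 to 24.3%), and all 6 used IGLV3, 2 in Cre+ and 4 in Cre-. IGHV5-16 had 0 of 60 (exact upper bound 5.96%). IGHV5-9 and IGHV5-12 had 0 of 25 and 0 of 23, with upper bounds of 13.7% and 14.8% that reach into the interval of IGHV5-9-1. Between these lay IGHV5-4 with 2 of 54 (3.70%) and IGHV5-17 with other J segments with 8 of 105 (7.62%, 3.35 to 14.5%). IGHV5-17 with IGHJ4 had 0 of 92, of which 62 were cells of its largest lineage. Among unswitched cells of 10 families IGHV5 ranked 6th for lambda, and IGHV10 was highest at 15.3% averaged over the libraries. IGLV3 was rare elsewhere, with 29 of 5673 cells outside the family.

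Kappa V genes were diverse, with 67 in 453 kappa cells. Outside IGHV5-17 with IGHJ4 the most frequent light V genes were IGKV6-15 with 21 of 386 cells, IGKV10-96 with 18 and IGKV1-117 with 16. IGKV10-96 led in IGHV5-16 with 6 of 60 cells, ahead of IGKV6-15 with 4 and IGKV1-117 with 3. It also led in IGHV5-12 with 3 of 23, ahead of IGKV1-117 and IGKV12-44 with 2 each. IGKV8-24 led in IGHV5-4 with 4 of 54, ahead of IGKV1-110 and IGKV1-117 with 3 each. IGKV14-111 led in IGHV5-9 with 3 of 25, and all 3 were Cre+ cells, ahead of IGKV1-117 and IGKV15-103 with 2 each. After their lambda genes, IGHV5-9-1 had IGKV1-135 and IGKV12-44 with 4 of 58 each, and IGHV5-6 had IGKV6-17 with 4 of 50 and IGKV6-15 with 3. IGHV5-17 with other J segments had IGKV1-135 and IGKV6-15 with 7 of 105 each and IGLV1 with 6.

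Heavy-chain UMIs of unswitched cells, a measure of captured transcript, also differed by member in both libraries. IGHV5-16 had the lowest medians of the 5 members with 20 or more such cells, 6 in Cre+ (quartiles 4 and 8) and 6.5 in Cre- (3 and 9). IGHV5-9-1 had 8 and 9, IGHV5-6 had 9 and 10, IGHV5-17 had 10 and 10.5, and IGHV5-4 had 10 and 16. Cells outside the family had 8 and 9. The distributions overlapped widely. Among 61 IGHV genes IGHV5-16 ranked 10.5 from the lowest in Cre+ and 13.5 in Cre-, so low medians are not particular to it. Across 61 IGHV genes the medians ran from 3 to 19 in Cre+ and 1.5 to 18 in Cre-, with Pearson's r of 0.832 and Spearman's rho of 0.898 between libraries, a description across genes that share each library's depth.

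**Figure D5:**
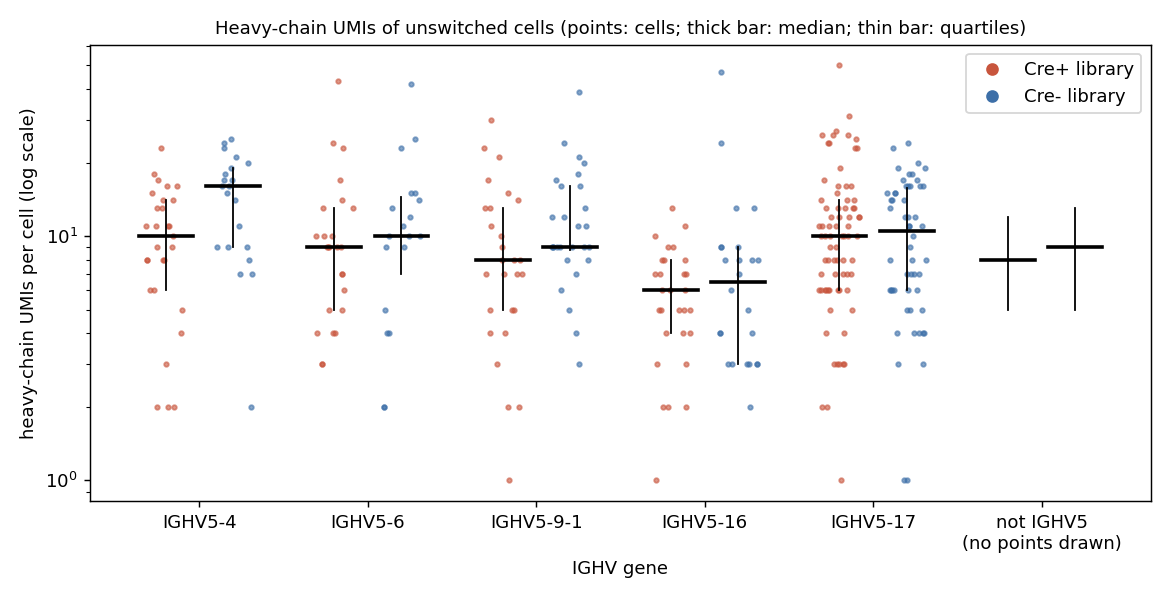
Heavy-chain UMIs per unswitched cell (log axis) for the 5 IGHV5 genes with 20 or more such cells, by library; points are cells, thick bars medians and thin bars quartiles, with medians and quartiles alone for cells outside IGHV5. IGHV5-16 has medians of 6 and 6.5, and IGHV5-4 of 10 and 16.

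At the high end, 5 IGHV5 cells had 100 or more heavy-chain UMIs, which is 1.01% of the family in Cre+ and 1.06% in Cre-, against 1.13% and 0.906% outside it. All 5 were switched. They were an IgG2b cell of IGHV5-4 with 1887 UMIs, an IgG2b cell of IGHV5-9 with 1461, the IGHV5-17 lineage's IgA cells with 859 and 703, and an IgA cell of IGHV5-16 with 464.

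CDR3 length did not set the family apart. The median in unswitched IGHV5 cells was 14.5 amino acids in Cre+ (quartiles 13 and 16) and 14 in Cre- (12 and 16), against 14 in both libraries outside it. Between members the medians ran from 13.5 in IGHV5-17 to 15 in IGHV5-4, IGHV5-6, IGHV5-9 and IGHV5-9-1 in the Cre+ library, among members with 20 or more cells over both libraries. The 13.5 includes 8 cells of the largest lineage, all of 12 amino acids, and IGHV5-17 with other J segments had 14. The 15 of IGHV5-9 rests on 12 unswitched cells. An arginine inside the CDR3, beyond its first 9 bases, was found in 28.7% and 28.6% of IGHV5 cells, against 27.5% and 27.9%.

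By the joint use of J segment and D family in unswitched cells, outside IGHV5-17 with IGHJ4, the families most like IGHV5 were IGHV1, IGHV3 and IGHV8. Their total variation distances, where 0 is identical use and 1 is no overlap, were 0.132, 0.160 and 0.175. IGHV2, its neighbour in the locus, was at 0.260, and IGHV7 was farthest of 9 families at 0.308. Leaving out IGHV5-17 with IGHJ4 lowers the use of IGHJ4 in IGHV5, to 58 of 342 cells (17.0%), while IGHV2 used IGHJ4 in 88 of 221 (39.8%). With all IGHV5 cells counted the distance to IGHV2 was 0.209, beside 0.210 for IGHV10 and 0.219 for IGHV14. IGHV5 outside IGHV5-17 with IGHJ4 differed by 0.215 between the libraries, more than its distances from IGHV1, IGHV3 and IGHV8. Smaller families have larger distances from counting error alone.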

How the data were processed

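Contig and clonotype tables of both libraries were used. Per the file headers, each deposited contig row holds 1 assembled receptor transcript with its V, D, J and constant gene, CDR3 and the count of reads and UMIs, not normalised. Cell Ranger, with no version given, and GRCm38 appear in the submitters' processing notes. Barcodes with 2 or more heavy chains (145 in Cre+ and 83 in Cre-) were left out of all main values, and no doublet caller was run. The light chain was the productive one with the most UMIs. No constant gene was called in 18 and 10 cells, which leave the isotype shares. Each cell has 1 constant gene, so IgM and IgD of 1 cell are not both seen. The interval of a difference combines both exact Clopper-Pearson intervals.

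Every IGHV5 gene is named with its cells, and genes with 20 or more cells are described by isotype, D, J, light chain and CDR3, with up to 3 light V and D genes each. Lineages of 3 or more cells and CDR3s found in 2 or more are named. The members, lists and rules were chosen with earlier results of these data known. Alternatives changed the barcodes, the minimum of 3 UMIs, the lineage identity, the J window and the cells counted. Lineage and interval steps were tested on simulated data. Gene positions come from RefSeq's GRCm38.p6 table, in which 9 of 9 IGHV5 names matched. No V region sequence was used here. Python 3.11.15, numpy 2.4.6, scipy 1.17.1, pandas 2.3.3 and matplotlib 3.10.9 were used.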

Additional observations from a re-analysis of the deposited data

Results flagged for a closer look

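Barcodes with 2 or more heavy chains, which the main values leave out, held IGHV5 in 42 of 300 chains of the Cre+ library (14.0%, 10.3 to 18.4%) and in 15 of 167 of the Cre- library (8.98%, 5.11 to 14.4%). The CDR3 of the largest IGHV5-17 IGHJ4 lineage was present in 15 of these Cre+ chains and in 0 Cre- chains. In those barcodes it had a median of 2 UMIs and was IgA in 9, and 13 of the 16 partner chains were IgM or IgD, with a median of 6 UMIs. Without that CDR3 the Cre+ share was 27 of 285 chains (9.47%, 6.34 to 13.5%).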

How the results depend on the processing

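No paired analysis was possible because each genotype has 1 pooled library. Counting each lineage and isotype class a single time, IGHV5 made up 7.42% of Cre+ and 7.46% of Cre- cells, and the difference turned to -0.0390 points. Without the largest lineage of each library, chosen after seeing the data, the shares were 7.21% and 7.43% and the difference -0.217. Unswitched cells alone gave 7.42% in Cre+ and a difference of 0.312, and leaving out only the largest IGHV5-17 IGHJ4 lineage gave 7.21% and 0.834. IGHV5-17 counted once per lineage and class also turned, to -0.145 points. Outside IGHV5-17 with IGHJ4 the Cre- share moved to 6.85% (counted once) and 6.80% (without the largest lineage). The share of cells in lineages was 11.8% in Cre+ at 80% identity, 1.82% and 2.92% at 90% identity or with a shared light V gene, and 0 and 1.75% with identical CDR3s. The J mismatch gap was -4.53 and -1.60 points with 6 bases. These settings change which cells or bases are counted, and the cause of a change was not tested. Of 105 alternatives to the principal values 84 stayed within their counting intervals, and of the 105 to single genes all but 4 did.

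The members have 5 to 200 cells, and shares of single genes carry wide intervals. Mice within a pool cannot be told apart, so the number of mice behind a lineage is not known, and neither the spread between mice nor that between libraries was measured.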

Other observations

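The short CDR3 below, from a Cre+ IgA cell of IGHV5-17 with IGHJ4 and IGKV6-17, begins with the same bases as the CDR3 found in 62 cells, through the first codons after the V end:
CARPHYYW: tgtgcaaggccccattactactgg
With 24 bases against 36 it could not join that lineage under the rule of equal length.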
